A study of Mus musculus with 28 samples.

Results

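A set of 10 genes that read as switched on or off in single neural stem cell lines were followed through all 11 groups of the study: *Ddit4l*, *Tagln2*, *Zcchc12*, *Zfhx4*, *Fndc3c1*, *Crym*, *Sostdc1*, *E030030I06Rik*, *Sp8* and *Gzmb*. They are 10 of the 28244 genes in the count table, and all 10 were found there. They were selected on their fold changes, each among the 3 largest rises or falls of at least 1 of the 11 comparisons, so the level of a gene in its selecting comparison is a description and carries no test. The question followed here is what each of these genes did in the lines and experiments that did not choose it.

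The study derived NSC lines from tissues outside the central nervous system of mice (peripheral NSCs, pNSCs) and set them beside NSCs from whole brain, by polyA RNA-seq of 28 samples. Every sample carries the strain label C57BL/6, whereas the study's methods also describe crosses with CD1 and CD1/C3H mice, and mice of both sexes were used. The groups Brain-NSC, Lung-pNSC, Tail-pNSC, Lung and Tail hold 2 samples each; their labels name no mouse line, and their groups and numbers are those of the study's experiment with Nes-GFP mice, in which green fluorescent protein is driven by *Nestin* regulatory elements. There the pNSCs came from adult lung (mice of 4 to 6 weeks) and postnatal tail (days 1 to 5), and Lung and Tail are the tissue cells. The Wnt1Cre-mTmG groups, brain NSCs, Tail pNSCs and dorsal root ganglion (DRG) pNSCs, hold 3 samples each. In these mice Wnt1-Cre turns on a green label in neural crest cells, and the pNSC lines, from postnatal tissue, lacked that label. DRG neural crest stem cells (NCSCs), also 3 samples, came from adult wild-type mice. DRG pNSCs and NCSCs thus differ in age and mouse line as well as in cell type. Sox2-GFP brain NSCs and postnatal Sox2-GFP lung pNSCs, from knock-in mice that carry GFP at *Sox2*, also hold 3 samples each. The pNSC clusters were picked after 3 weeks in NSC medium with 10 ng/mL of epidermal and of basic fibroblast growth factor, and most lines go back to single clusters, so a group may stand for 1 clone. The study calls its replicates biological without saying whether they are separate derivations of a line or cultures of one line, and p-values below then measure only the spread between these samples.

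The genes have different jobs. *Ddit4l* and its relative *Ddit4* encode inhibitors of mTORC1, the kinase complex that couples growth to nutrients. *Tagln2* (transgelin 2) encodes an actin-binding protein of the calponin family. *Zcchc12* encodes a zinc finger coactivator of BMP signalling through Smad proteins, *Sostdc1* a secreted inhibitor of BMP ligands that also binds the Wnt co-receptors of the Lrp family. *Zfhx4* and *Sp8* encode zinc finger transcription factors, the latter known from limb outgrowth and from interneuron progenitors of the forebrain. *Crym* encodes mu-crystallin, a thyroid hormone-binding protein of the cytosol, and *Gzmb* the protease granzyme B, best known from the granules of cytotoxic T and NK cells. *Fndc3c1* encodes a protein with fibronectin type III domains, and *E030030I06Rik* is a protein-coding gene to which no role is given here. NSCs are recognised by *Sox2*, *Olig2*, *Pax6* and *Fabp7*, and NCSCs by *Sox10*, *Ngfr* and *Foxd3*.

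The libraries held between 9808246 and 22637031 counts, fewest in Wnt1Cre-mTmG brain NSCs and DRG pNSCs, and 3 counts amounted to between 0.131 and 0.294 cpm (counts divided by library size in units of 1e6). Levels are given as cpm after TMM scaling over all 28 libraries and are not per length, so they compare groups for 1 gene and not genes with each other. A group is called off when each of its samples held at most 3 counts, on when each held more than 3 counts and at least 1 cpm, and low otherwise. The 6 NSC markers were on in all 8 NSC and pNSC groups. In DRG NCSCs the 6 neural crest markers were on, 4 of the 6 NSC markers were on, and replicate 3 stood apart, with 16.8 and 21.0 units of chi-square per gene against the other two replicates, which differed from each other by 2.22. Experiment and any sequencing batch cannot be told apart, so levels across experiments are set side by side with no test. Exceptions are the interaction contrasts and Sox2-GFP lung pNSCs against the Lung samples of the first experiment, a comparison the study makes. In the latter, line, experiment and possibly age differ at once. Lung-pNSC (adult) and Sox2-GFP lung pNSCs (postnatal) differ in age as well as in mouse line and experiment. A gene is called changed at an adjusted p under 0.05 in edgeR's quasi-likelihood test and a log2 fold change of at least 1 in either direction.

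Each gene had a state pattern of its own (the plot of all 28 samples). *Ddit4l* was on in 10 of 11 groups and off in 1, *Tagln2* on in 10 and low in 1, *Zfhx4* on in 9 and off in 2, *Zcchc12* on in 8, *E030030I06Rik* on in 7, *Fndc3c1* and *Sostdc1* on in 6. *Crym* was on in 3 groups, and *Sp8* and *Gzmb* in 2 each. Of 13287 genes that were on in at least 1 of the 8 NSC and pNSC groups, 794 (5.98%) were off in at least 1 other of these groups, and 11055 were on in all 8. Only 16 genes in the table were off in 1 of the 8 groups and on in the other 7. *Ddit4l* and *Zcchc12* are 2 of them, both off in Lung-pNSC, as were *Anxa2* and *Parvb*. Both members were chosen on their falls in Lung-pNSC, so being off there follows from the choice. Their lowest mean in the other 7 groups was 1.38 cpm for *Ddit4l* and 2.95 cpm for *Zcchc12*. With a limit of 5 cpm for on, neither would keep this pattern.

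**Figure D1:**
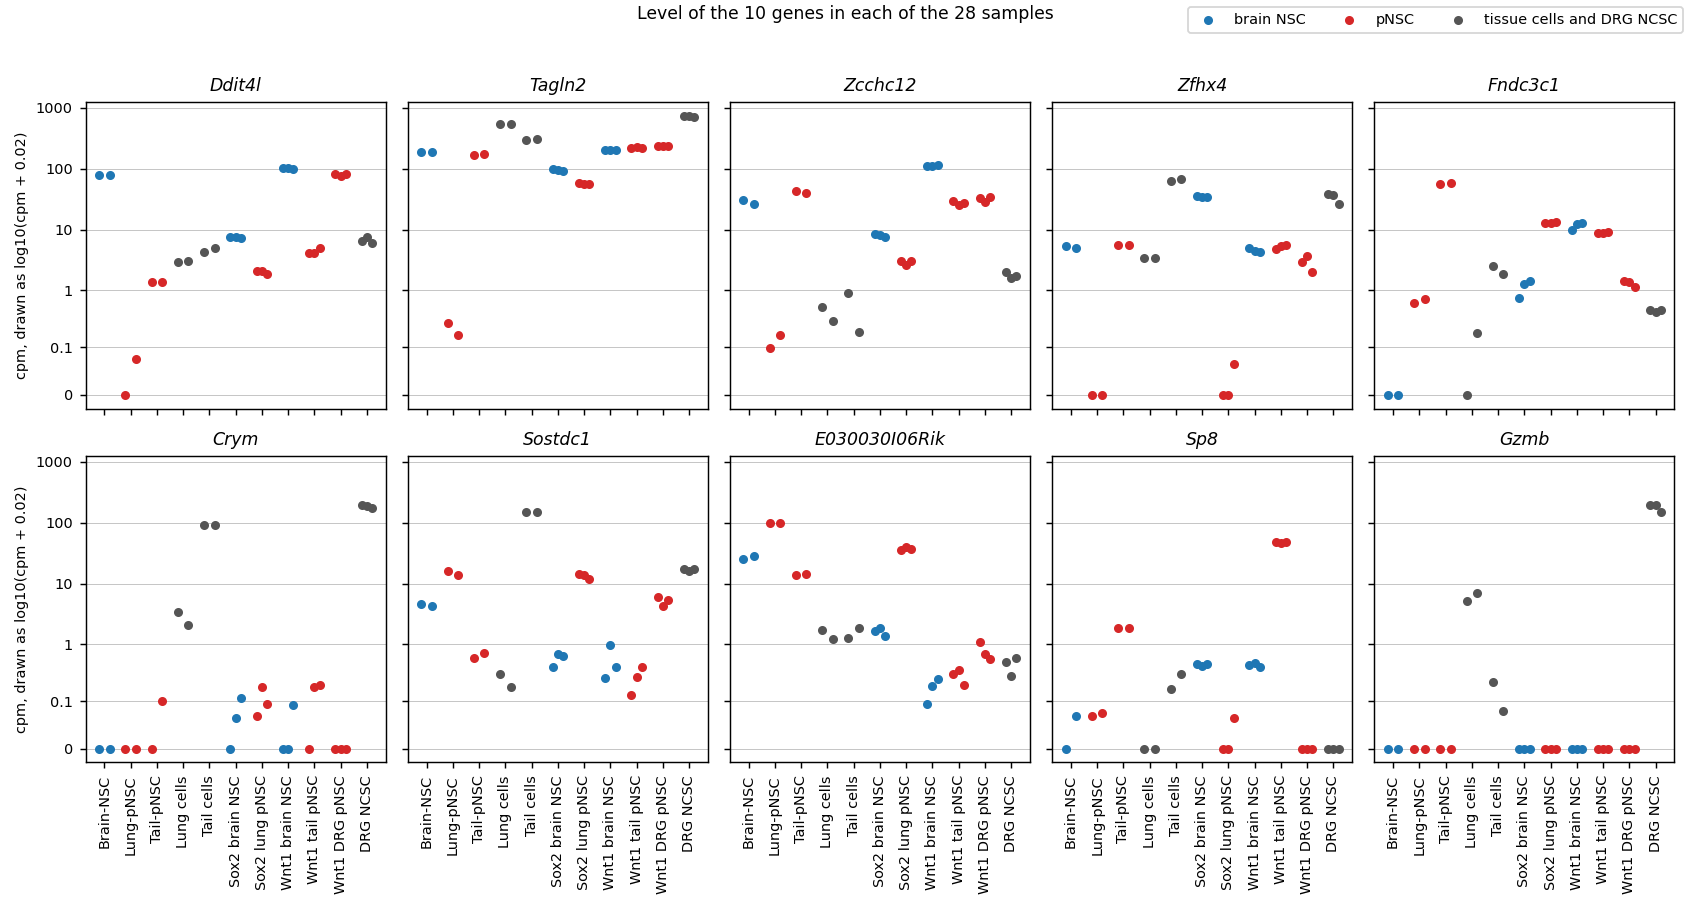
Level of each of the 10 genes in all 28 samples, 1 point per sample, in cpm on a log10 axis after adding 0.02 so that 0 can be drawn; blue marks brain NSC groups, red pNSC groups and grey the tissue cells and DRG NCSCs. Points at 0 are samples with no read, as for *Gzmb* in all 8 NSC and pNSC groups and *Zfhx4* in both Lung-pNSC samples.

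On GRCm38, the build of the files, GENCODE M21 places *Ddit4l* at chr3:137621612-137628333 (+), *Tagln2* at chr1:172500047-172507380 (+), *Zcchc12* at chrX:36195904-36199158 (+), *Zfhx4* at chr3:5218526-5415857 (+) and *Fndc3c1* at chrX:106420041-106485401 (-). It places *Crym* at chr7:120186380-120202111 (-), *Sostdc1* at chr12:36314139-36318452 (+), *E030030I06Rik* at chr10:22113050-22149270 (-), *Sp8* at chr12:118846329-118852576 (+) and *Gzmb* at chr14:56258838-56262260 (-). All 10 are annotated as protein-coding. *Zfhx4* overlaps the antisense gene *2700069I18Rik* and *Fndc3c1* the miRNA gene *Gm27428*, both without a shared exon, and *E030030I06Rik* overlaps pseudogenes on the opposite strand. Promoter windows on GRCm38.p6 from RefSeq matched 7 of the 10 genes (3 windows for *Sp8*). The 4 printed here belong to genes that were silent in at least 1 line and have no annotated exon in the 250 bases before the start; they are shown to let the reader see how unlike they are in CpG content. Each line gives 250 bases in the direction of the gene, with every CpG in capitals. *Ddit4l* lies at chr3:137623422-137623671 (+), *Zcchc12* at chrX:36195654-36195903 (+), *E030030I06Rik* at chr10:22149271-22149520 (-) and *Gzmb* at chr14:56262335-56262584 (-). The bases of *Ddit4l* are set by a RefSeq start and lie inside the GENCODE span of the gene given above, not before it.
Ddit4l: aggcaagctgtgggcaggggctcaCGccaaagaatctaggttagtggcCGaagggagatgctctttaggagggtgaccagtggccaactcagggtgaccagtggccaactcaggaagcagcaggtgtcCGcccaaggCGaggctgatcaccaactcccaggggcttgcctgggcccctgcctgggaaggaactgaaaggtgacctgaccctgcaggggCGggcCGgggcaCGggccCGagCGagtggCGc
Zcchc12: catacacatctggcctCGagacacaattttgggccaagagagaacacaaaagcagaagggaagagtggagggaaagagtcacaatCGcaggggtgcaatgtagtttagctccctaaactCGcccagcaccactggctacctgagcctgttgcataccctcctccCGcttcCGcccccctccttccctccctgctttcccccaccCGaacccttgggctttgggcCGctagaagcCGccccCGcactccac
E030030I06Rik: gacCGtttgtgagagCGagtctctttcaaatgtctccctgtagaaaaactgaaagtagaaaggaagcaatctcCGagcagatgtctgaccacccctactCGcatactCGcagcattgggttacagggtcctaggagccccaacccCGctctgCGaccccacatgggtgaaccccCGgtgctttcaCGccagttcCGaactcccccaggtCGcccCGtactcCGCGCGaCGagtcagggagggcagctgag
Gzmb: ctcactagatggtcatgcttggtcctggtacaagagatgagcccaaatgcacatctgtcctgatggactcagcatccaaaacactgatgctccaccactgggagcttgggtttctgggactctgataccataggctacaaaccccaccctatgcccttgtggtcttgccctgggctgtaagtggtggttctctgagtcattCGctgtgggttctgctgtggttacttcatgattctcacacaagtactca
Over the whole window of 300 bases, *Gzmb* held 2 CpG, *Zcchc12* 11, *Ddit4l* 14, *Fndc3c1* 17, *Tagln2* 18 and *E030030I06Rik* 21, and the 3 windows of *Sp8* held 2, 10 and 32. All 32851 windows had a median of 7 CpG and quartiles of 3 and 20. Of these genes, *Gzmb*, which had no read in any NSC or pNSC sample, had the fewest in its only window. The letters TATAAA on either strand were found in the windows of *Ddit4l* and *E030030I06Rik* and in 1 window of *Sp8*, and in 13.6% of all windows. The 250 bases printed for *Ddit4l* and *E030030I06Rik* do not hold these letters, so there they reach into the 50 bases after the start.

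*Zfhx4* was silent in lung pNSCs of both experiments. It was chosen in the Sox2-GFP lines, where the 3 brain NSC samples held 35.6, 35.1 and 35.1 cpm and the 3 lung pNSC samples held 0, 0 and 0.044 cpm, the last from 1 read. The 2 Lung-pNSC samples, which did not choose it, held no read at all, against 5.46 and 5.03 cpm in Brain-NSC. The groups did not overlap in either experiment. In the second of these comparisons *Zfhx4* was at least 33.8-fold lower in Lung-pNSC, taking 3 counts per library as the floor, and was called by edgeR (adjusted p = 1.24e-51). Lung cells themselves held 3.50 and 3.48 cpm, and Lung-pNSC was at least 22.5-fold below them (edgeR, adjusted p = 1.12e-35).

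In the other 6 NSC and pNSC groups *Zfhx4* was on, at 2.90 ± 0.86 cpm (s.d., n = 3) in Wnt1Cre-mTmG DRG pNSCs up to 35.3 ± 0.317 cpm (n = 3) in Sox2-GFP brain NSCs. Tail-pNSC was not called against Brain-NSC (5.74 and 5.25 cpm, log2 fold change 0.11 ± 0.16 s.e., edgeR adjusted p = 0.656), nor were Wnt1Cre-mTmG Tail pNSCs against their brain NSCs (5.33 and 4.58 cpm, 0.20 ± 0.21, adjusted p = 0.415). Silence in lung and expression in all other lines was rare: of all genes in the table, *Zfhx4* and *Cadps2*, which encodes a protein of vesicle release, were off in both lung pNSC groups and on in the other 6 NSC and pNSC groups, and no gene showed the reverse. *Cadps2* ran from 2.08 to 5.31 cpm in those 6 groups. Its relatives *Zfhx2* and *Zfhx3* and its partner *Chd4*, a chromatin remodeller, were tested in the Sox2-GFP comparison and 0 of 3 were called, with a median log2 fold change of -0.11 against 0 over all genes tested.

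*Ddit4l* was the largest fall of Lung-pNSC against Brain-NSC among 211 called genes whose groups did not overlap and whose mean count passed a minimum. Brain-NSC held 78.4 and 80.4 cpm, and Lung-pNSC held 0 and 0.0561 cpm, the latter from 1 read, a ratio of 3093 with a 95% exact interval of 555 to 122220 that covers counting error only. In the Sox2-GFP experiment the same direction was seen on a much smaller scale: the brain NSC samples held 7.64, 7.62 and 7.48 cpm and the lung pNSC samples 2.14, 2.08 and 1.85 cpm, without overlap. The fitted log2 fold change was -1.88 ± 0.15 s.e. (edgeR, adjusted p = 1.76e-36).

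Tail lines were also low in *Ddit4l*. The 2 Tail-pNSC samples held 1.39 and 1.37 cpm, a 58.2-fold difference from Brain-NSC that shares the brain samples of the selecting comparison. In the Wnt1Cre-mTmG experiment, which did not choose the gene, Tail pNSCs held 4.21, 4.10 and 5.13 cpm and brain NSCs 104, 104 and 100.5 cpm, a log2 fold change of -4.54 ± 0.08 s.e. (edgeR, adjusted p = 1.00e-17). DRG pNSCs, at 83.7, 76.6 and 81.9 cpm, stayed near their brain NSCs: the log2 fold change of -0.34 ± 0.06 s.e. had an adjusted p of 1.32e-04 in edgeR and missed the fold threshold. *Ddit4l* therefore fell past both thresholds in 2 of 2 comparisons that did not choose it and that set lung or tail pNSCs against brain NSCs, and not in DRG pNSCs. Of 7 other genes that restrain mTORC1 (*Ddit4*, *Sesn1*, *Sesn2*, *Sesn3*, *Deptor*, *Tsc1* and *Tsc2*), none fell in Lung-pNSC against Brain-NSC and 1 rose, *Deptor*, from 3.72 to 15.1 cpm (log2 fold change 2.00 ± 0.13 s.e.), and their median was 0.24 against 0 over all genes tested.

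*Tagln2* was nearly silent in 1 line alone. Lung-pNSC held 0.284 and 0.168 cpm (6 and 3 reads), against 192 and 191 cpm in Brain-NSC. No other group had a sample below 57.5 cpm, and the highest level was that of DRG NCSCs, at 743, 735 and 722 cpm. In the Sox2-GFP lines the lung pNSC samples held 59.9, 57.5 and 57.5 cpm and the brain NSC samples 99.8, 96.0 and 92.1 cpm, and the log2 fold change of -0.69 ± 0.03 s.e. (edgeR, adjusted p = 2.46e-97) missed the fold threshold. Tail and DRG pNSCs of the Wnt1Cre-mTmG experiment were 1.08-fold and 1.17-fold above their brain NSCs, also below it. Among its family, *Tagln*, *Tagln3*, *Cnn1*, *Cnn2* and *Cnn3*, 1 of 5 fell in Lung-pNSC against Brain-NSC. It was *Cnn2*, a calponin, from 43.7 to 22.2 cpm (log2 fold change -1 ± 0.06 s.e.). The family's median was -1 against 0 over all genes tested, but it rests in part on genes near the floor. *Cnn1* was off and *Tagln* and *Tagln3* were low in both groups, and *Cnn3*, on in both, had -0.49 without a call.

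*Zcchc12* also fell from 30.6 and 26.4 cpm in Brain-NSC to 0.0947 and 0.168 cpm in Lung-pNSC, 2 and 3 reads. Sox2-GFP lung pNSCs held 3.09, 2.63 and 3.12 cpm and their brain NSCs 8.63, 8.23 and 7.72 cpm. These did not overlap either, and the log2 fold change was -1.45 ± 0.13 s.e. (edgeR, adjusted p = 9.67e-27). In the Wnt1Cre-mTmG experiment *Zcchc12* fell from 114 ± 2.55 cpm (s.d., n = 3) in brain NSCs to 27.7 ± 1.76 in Tail pNSCs (log2 fold change -2.06 ± 0.06 s.e., adjusted p = 8.18e-15) and to 32.2 ± 2.69 in DRG pNSCs (-1.83 ± 0.06, adjusted p = 3.41e-13, edgeR). Tail-pNSC went the other way, at 43.8 and 40.9 cpm above both Brain-NSC samples, in a comparison that shares Brain-NSC with the one that chose the gene. Of *Smad1*, *Smad5*, *Smad9*, *Crebbp* and the relative *Zcchc18*, 0 of 5 were called in Lung-pNSC against Brain-NSC, with log2 fold changes from -0.60 to 0.51.

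The opposite direction was seen for *E030030I06Rik* and *Sostdc1*, both chosen in the Sox2-GFP lines and both higher in lung pNSCs of the other experiment. *E030030I06Rik* rose from 1.69, 1.87 and 1.39 cpm in Sox2-GFP brain NSCs to 36, 40.3 and 37.8 cpm in lung pNSCs. Lung-pNSC samples held 98.7 and 101 cpm and Brain-NSC samples 25.5 and 28.5 cpm, a log2 fold change of 1.86 ± 0.07 s.e. (edgeR, adjusted p = 3.07e-157). Both lung pNSC groups stood above every other group without overlap, followed by Brain-NSC and then Tail-pNSC (13.8 and 14.4 cpm). In the Wnt1Cre-mTmG experiment the gene was off or low in every group, its highest sample at 1.10 cpm, and it did not pass the filter on low counts there. Its exons overlap those of *Gm19791* on the opposite strand, which has no row in the table, and no source says whether strand was used in counting, so reads of the pair cannot be told apart.

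*Sostdc1* followed the same order in lung. Sox2-GFP lung pNSCs held 14.5, 13.7 and 12.2 cpm and brain NSCs 0.408, 0.697 and 0.638 cpm. The Lung-pNSC samples held 15.9 and 14.1 cpm and Brain-NSC samples 4.56 and 4.30 cpm (log2 fold change 1.74 ± 0.13 s.e., edgeR adjusted p = 3.98e-40). The levels of the 2 lung pNSC groups overlapped, while lung cells held 0.318 and 0.183 cpm. DRG pNSCs, at 6.00, 4.32 and 5.36 cpm, were 9.64-fold above Wnt1Cre-mTmG brain NSCs (log2 fold change 3.27 ± 0.30 s.e., adjusted p = 1.06e-07). Tail-pNSC fell below Brain-NSC (0.646 and 4.43 cpm, -2.78 ± 0.27, adjusted p = 6.65e-24), and in Wnt1Cre-mTmG Tail pNSCs the gene was not called against their brain NSCs (0.273 and 0.551 cpm, -1.01 ± 0.52, edgeR adjusted p = 0.0957).

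Other genes of BMP and Wnt signalling were mixed in Sox2-GFP lung pNSCs. Of 8 listed, 1 rose and 2 fell, with a median log2 fold change of 0.17 against 0 over all genes tested. *Bmp7*, a BMP ligand, rose from 29.7 to 111 cpm (log2 fold change 1.93 ± 0.04 s.e.). *Nog*, which encodes the BMP antagonist noggin, fell from 5.71 to 1.73 cpm (-1.70 ± 0.17). *Bmp4*, at 0.126 and 0.0147 cpm, passed the test on a handful of reads.

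**Figure D2:**
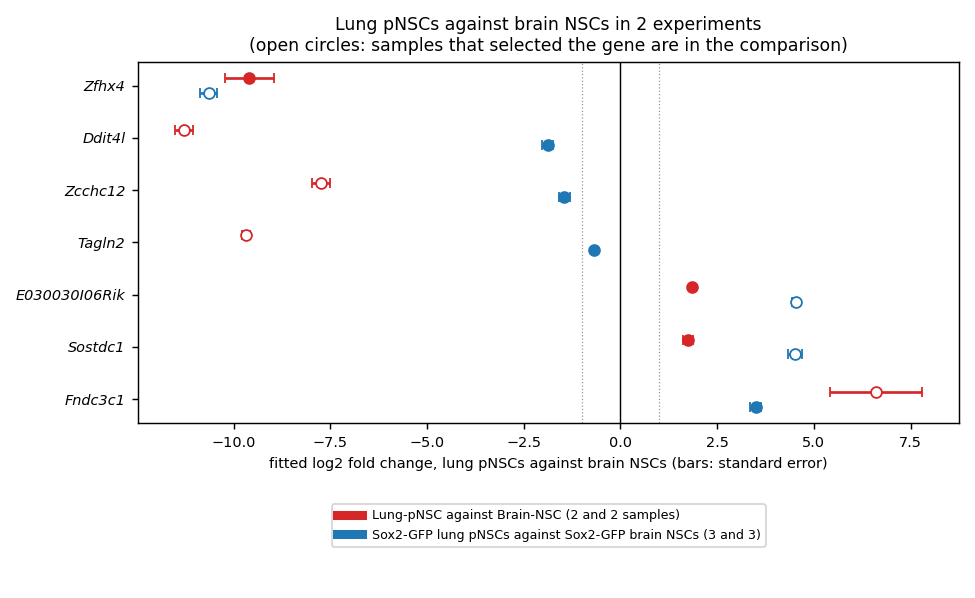
Fitted log2 fold change of lung pNSCs against brain NSCs for 7 of the genes, with its standard error, in the experiment with 2 samples per group (red) and in the Sox2-GFP experiment (blue); open circles mark comparisons that contain samples used to choose the gene. *Zfhx4* lies far below 0 in both, *Ddit4l* and *Zcchc12* at -1.88 and -1.45 in the Sox2-GFP experiment, and *Tagln2* at -0.69 lies inside the dotted fold threshold.

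Counted over genes whose choice rested on other samples, 3 of 6 were called in Lung-pNSC against Brain-NSC, 2 higher and 1 lower, where 8.71% of 16948 genes were called. The rest had too few reads for a call: *Crym* and *Gzmb* held none in these samples and *Sp8* at most 1 per sample. In Sox2-GFP lung pNSCs against brain NSCs, 6 of 7 genes chosen on other samples were tested. Of these, 3 were called, 1 higher and 2 lower, where 15.7% of 16234 genes were called. Among those not called, *Gzmb* held no read in either group and *Crym* at most 4 per sample. The third call of the Sox2-GFP comparison was *Fndc3c1*, at 13.1, 13 and 13.5 cpm in lung pNSCs and 0.758, 1.31 and 1.45 cpm in brain NSCs (log2 fold change 3.49 ± 0.15 s.e., edgeR adjusted p = 7.43e-123). The lung pNSCs of the experiments also differ in age, adult and postnatal. An interaction contrast tested the difference between the lung effects of the experiments. By their choice, this test was left for 3 genes (*Crym*, *Sp8* and *Gzmb*) that held at most 10 reads per sample in these groups. It called 1, *Sp8*, where 14.1% of 17393 genes were called; *Sp8* had passed the filter through tail pNSCs, which are outside this contrast and include the samples that chose it, and its call was lost without either Lung-pNSC replicate (edgeR, adjusted p = 0.0614 and 0.0728), so nothing is read from it.

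*Fndc3c1* was chosen for its rise in Tail-pNSC, and the group it was measured against had none of it. Tail-pNSC samples held 56.3 and 59.0 cpm, while both Brain-NSC samples held no read, a difference of at least 390-fold. The other brain NSC groups did have the gene: Wnt1Cre-mTmG brain NSCs held 9.98, 12.3 and 12.8 cpm and Sox2-GFP brain NSCs 0.758, 1.31 and 1.45 cpm. In the Wnt1Cre-mTmG experiment Tail pNSCs held 8.99, 8.98 and 9.08 cpm, a log2 fold change of -0.39 ± 0.10 s.e. against brain NSCs (edgeR, adjusted p = 2.81e-03) that missed the fold threshold and had the opposite sign to Tail-pNSC. DRG pNSCs were lower, at 1.44, 1.37 and 1.15 cpm (-3.14 ± 0.17, adjusted p = 7.34e-11). Its paralogs *Fndc3a* and *Fndc3b* were not called in Tail-pNSC against Brain-NSC, with log2 fold changes of -0.15 and 0.07.

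*Sp8* was high in 1 line. The Wnt1Cre-mTmG Tail pNSC samples held 47.6, 46.9 and 48.8 cpm, and DRG NCSCs, against which the gene was chosen, held none. Brain NSCs of that experiment held 0.446, 0.482 and 0.422 cpm, 5 reads in each sample, and all 3 DRG pNSC samples held no read. No test is given for DRG pNSCs against brain NSCs, because the gene passed the filter on low counts there through the Tail pNSC samples that chose it. The only other group that was on was Tail-pNSC, at 1.85 and 1.88 cpm from 32 and 37 reads. Both Brain-NSC samples together held 1 read, a ratio of 76.0 with a 95% exact interval of 13.2 to 3043 for counting error. No test is given here either, because in that fit the gene passed the filter through the Tail-pNSC samples alone. The group means of the tail lines were 1.87 cpm here and 47.8 cpm in the Wnt1Cre-mTmG line that chose the gene. Tail cells held 0.167 and 0.319 cpm. In the Sox2-GFP experiment brain NSCs held 8, 10 and 8 reads and lung pNSCs 0, 0 and 1, and the gene did not pass the filter on low counts there.

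Of 7 other Sp family genes, 4 were tested in Wnt1Cre-mTmG Tail pNSCs against DRG NCSCs and 1 was called, *Sp9*, from 0.0899 to 0.873 cpm (log2 fold change 3.23 ± 0.55 s.e.), while brain NSCs of that experiment held 5.13 cpm; *Sp1*, *Sp3* and *Sp4* had log2 fold changes from 0.04 to 0.33. Fibroblast markers were higher in the Wnt1Cre-mTmG Tail pNSC samples than in any other NSC or pNSC group: all 6 were on, with a summed level of 418 to 428 cpm, against 7.23 to 102 cpm elsewhere, and their part in the *Sp8* level was not tested.

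Over the tail comparisons, 2 of 6 genes not chosen on these samples were called in Tail-pNSC against Brain-NSC (*Sp8* higher, *Sostdc1* lower), where 10.9% of 16948 genes were called. *Sp8* had passed the filter through the Tail-pNSC samples themselves, which leaves *Sostdc1*. Of the genes not called, *Gzmb* held no read in either group and *Crym* at most 2 per sample. In Wnt1Cre-mTmG Tail pNSCs against brain NSCs, 7 of 8 genes not chosen on these samples were tested. Of these, 2 were called, both lower (*Ddit4l* and *Zcchc12*), where 18.2% of 14448 genes were called. In DRG pNSCs against brain NSCs, 4 of 7 tested were called, 1 higher (*Sostdc1*) and 3 lower (*Zcchc12*, *Fndc3c1* and *Sp8*), where 9.53% were called; *Sp8*, with 5 reads in each brain sample and none in DRG pNSCs, passed the filter through the samples that chose it, and 3 of 6 were called without it. The interaction of the tail effect with the experiment was open to 4 genes and called 2, *Sostdc1* and *E030030I06Rik*, where 16% of 17393 genes were called. Both rest on at most 10 reads per sample in the Wnt1Cre-mTmG groups, where *E030030I06Rik* did not pass the filter of that experiment's own fit. The adjusted p of *Sostdc1* was 0.104 without Wnt1Cre-mTmG Tail pNSCs replicate 3, and that of *E030030I06Rik* was 0.0819 without Tail pNSCs replicate 2 and 0.0918 without brain NSCs replicate 1 (edgeR), which leaves 1 call in each case.

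*Crym* and *Gzmb* were on in DRG NCSCs and in tissue cells, and in none of the 8 NSC and pNSC groups. *Gzmb* held 193, 196 and 152 cpm in the 3 NCSC samples, 4145, 4104 and 2591 reads, and no read in any of the 21 samples of the 8 NSC and pNSC groups. The lowest of the 3 was replicate 3, the library that stood apart. Outside NCSCs, lung cells held 5.20 and 7.14 cpm and tail cells 4 and 1 reads. Against lung cells, which took no part in the choice, both lung lines were lower, Lung-pNSC at least 39.8-fold and Sox2-GFP lung pNSCs at least 44.8-fold, the latter across experiments. No test is given, because in both fits the gene passed the filter on low counts through the lung cells alone.

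The genes that usually accompany granzyme B in T and NK cells were at or near 0 in DRG NCSCs. Of 8 T and NK cell markers, 7 were off there and none was on, with a summed level of 0 to 0.381 cpm, while all 8 were on in lung cells, at 89.3 to 91.3 cpm in sum. *Cd3e*, *Cd3g*, *Cd8a*, *Cd2*, *Nkg7* and *Ncr1* held no read in any NCSC sample, and *Prf1*, which encodes the pore protein perforin, averaged 0.0159 cpm. *Gzma*, at 28.1 cpm in lung cells, held none. General leukocyte markers were present in NCSCs: 5 of 6 were on, summing to 566 to 595 cpm. Of this, *Lyz2*, a lysozyme of macrophages, made up 525 cpm, *Cd68* 22 cpm and *Ptprc* 11.6 cpm. All 6 fibroblast markers and all 5 neuron markers were on as well, summing to 2822 to 3478 cpm and 610 to 624 cpm. The 4 mast cell markers summed to 5.51 to 6.86 cpm, nearly all from *Kit*. The part of these cells in the *Gzmb* and *Crym* levels was not tested, and in bulk samples more cells of a type and more RNA per cell cannot be told apart.

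**Figure D3:**
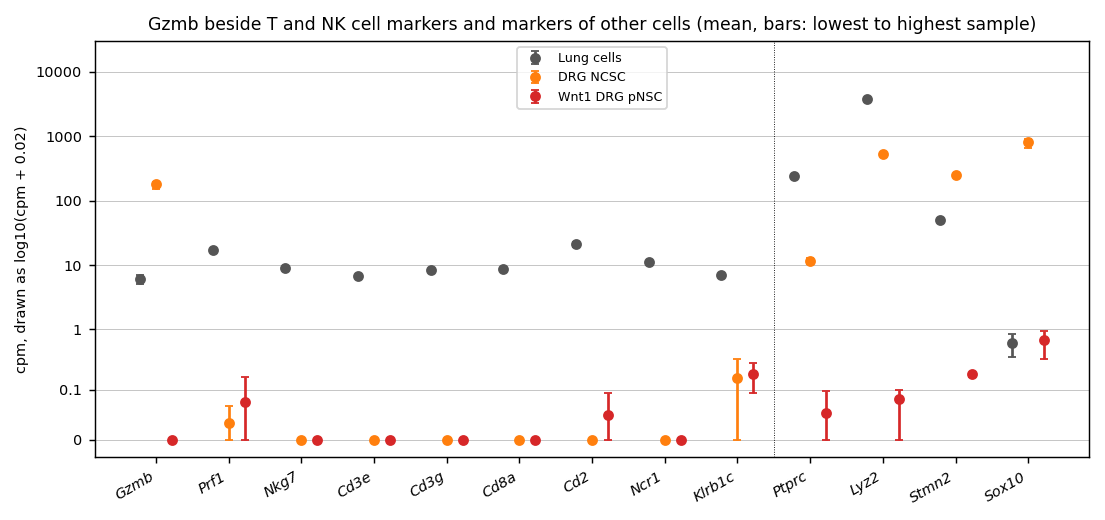
*Gzmb* beside 8 T and NK cell markers (left of the dotted line) and markers of leukocytes, neurons and neural crest in lung cells, DRG NCSCs and Wnt1Cre-mTmG DRG pNSCs; points are means and bars run from the lowest to the highest sample, in cpm on a log10 axis after adding 0.02. *Gzmb* was at 180 cpm in DRG NCSCs with the T and NK cell markers at or near 0, and at 6.17 cpm in lung cells with each of those markers above it.

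Of 11 other granzyme genes and granule partners, 3 were tested in NCSCs against brain NSCs and 3 were called higher. In that comparison 3192 of 14448 genes were called higher. *Serpinb9*, the inhibitor of granzyme B, went from 0.508 to 9.43 cpm (log2 fold change 4.20 ± 0.26 s.e.). *Srgn*, a granule proteoglycan, went from 0.0297 to 1.34 cpm, and *Gzmm* from 0.699 to 1.67 cpm. With so few reads in brain NSCs, *Srgn* passed the filter through other groups. The remaining 8 did not pass the filter on low counts.

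*Crym* held 192, 188 and 172 cpm in DRG NCSCs and no read in the 3 DRG pNSC samples, a difference of at least 661-fold in the comparison that chose it. It was off in 6 of the 8 NSC and pNSC groups, and in the other two no sample held more than 4 reads. Tail cells held 91.6 and 92.6 cpm and Tail-pNSC 0 and 0.102 cpm, the latter from 2 reads, a ratio of 1698 with a 95% exact interval of 470 to 14031 for counting error; the gene was called by edgeR. Lung cells held 3.45 and 2.07 cpm, and Lung-pNSC, with no read, was at least 17.8-fold lower (edgeR, adjusted p = 1.89e-29). Of 7 genes of thyroid hormone action and transport, 5 were tested in DRG pNSCs against NCSCs: *Thrb*, a thyroid hormone receptor, was higher in DRG pNSCs (8.13 against 0.821 cpm, log2 fold change 3.32 ± 0.20 s.e.), *Dio2*, which activates the hormone, and the transporter *Slc16a10* were lower (-1.30 ± 0.31 and -1.09 ± 0.20), and the median was 0.86.

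Against NCSCs and against tissue cells most of the 10 genes were called, as were many genes of the table. In DRG NCSCs against brain NSCs, 6 of 6 tested genes that had not been chosen on these samples were called, 3 in each direction, where 36.9% of genes were called. Wnt1Cre-mTmG Tail pNSCs against NCSCs gave 5 of 6 (2 higher, 3 lower; 37.9%), and DRG pNSCs against NCSCs 6 of 6 (3 higher, 3 lower; 38.3%). Against tissue cells, 8 of 9 were called in Tail-pNSC (3 higher, 5 lower; 46.7%; *Gzmb*, called on 4 and 1 reads against none, had passed the filter through lung cells and lost its call without either Tail-pNSC replicate or Tail replicate 1), 6 of 7 in Lung-pNSC (3 higher, 3 lower; 55%) and 5 of 6 in Sox2-GFP lung pNSCs (2 higher, 3 lower; 56.3%); the last 2 share the lung samples, and the last crosses experiments. Some of these calls rest on genes that passed the filter only through the group where they were high. These were *Gzmb* against lung cells for both lung lines, *Crym* against lung cells in the Sox2-GFP fit, and *Sp8* in Tail-pNSC. Among the other calls, *Sostdc1* was 247-fold lower in Tail-pNSC than in tail cells, which held 150 and 153 cpm. *Zcchc12* was 68.9-fold higher in Tail-pNSC than in tail cells, which held 0.893 and 0.191 cpm (edgeR, adjusted p = 1.40e-237).

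The brain NSC groups also differed from each other in several of these genes. Of 12340 genes that were on in a brain NSC group and above 3 counts in every brain sample, the highest group mean was a median of 1.44 times the lowest, and 2.73% differed over 8-fold. *Zcchc12* differed 13.9-fold and *Ddit4l* 13.5-fold, both highest in the Wnt1Cre-mTmG and lowest in the Sox2-GFP group. *Zfhx4* differed 7.71-fold the other way, at 35.3 cpm in the Sox2-GFP group and 4.58 in the Wnt1Cre-mTmG group, and *Tagln2* 2.12-fold. *E030030I06Rik* was at 25.5 and 28.5 cpm in Brain-NSC and off in Wnt1Cre-mTmG brain NSCs with 1, 2 and 3 reads, and *Fndc3c1* was off in Brain-NSC and on in the Wnt1Cre-mTmG group. Of 12843 genes on in at least 1 brain NSC group, 265 (2.06%) were off in another. These groups differ in experiment, mouse line and any batch at once, which cannot be told apart.

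**Figure D4:**
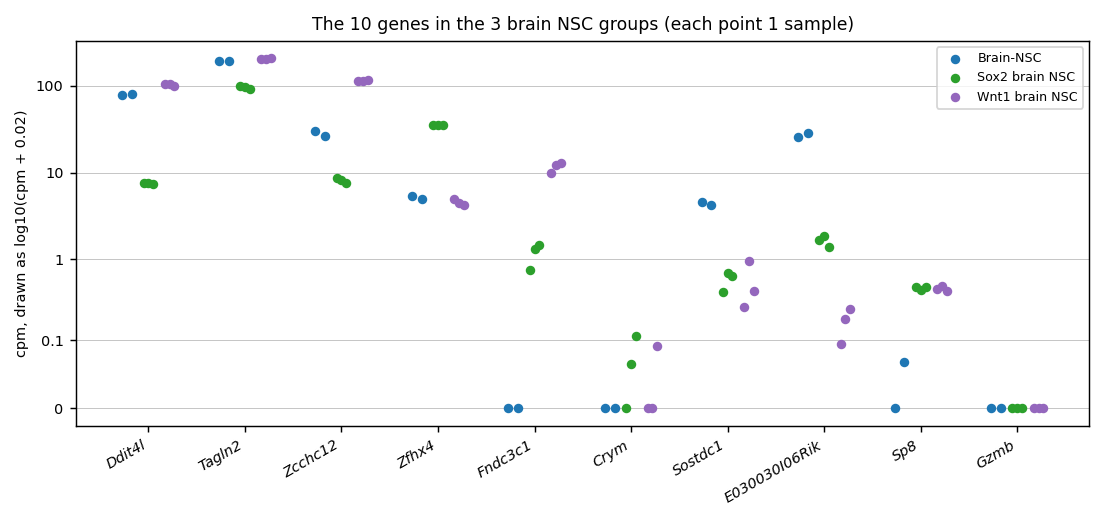
Level of the 10 genes in each sample of the brain NSC groups, in cpm on a log10 axis after adding 0.02. *Ddit4l* and *Zcchc12* are lowest and *Zfhx4* is highest in the Sox2-GFP group, *Fndc3c1* is at 0 in Brain-NSC, and *Gzmb* is at 0 in all of them.

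Genes with the most similar pattern were ranked by Pearson's r of log2(cpm + 1) over the 11 group means, among 14438 genes with a group mean of at least 5 cpm; group means share libraries within a group, and the coefficients are descriptions. *Crym* was closest to *Grem1* (r = 0.999), which encodes the BMP antagonist gremlin. *Gzmb* had *Gal* (r = 0.993), a neuropeptide gene highest in DRG NCSCs at 17.4 cpm, among the 3 genes most like it. *Sp8* was closest to *Trhr* (r = 0.979) and *Crb2* (r = 0.911), both highest in Wnt1Cre-mTmG Tail pNSCs at 5.54 and 20.9 cpm. *Gzmb* and *Sp8* are each high mainly in 1 group, so their coefficients rest largely on that group. That of *Crym* rests largely on DRG NCSCs and tail cells, since the gene was near 0 in all NSC and pNSC groups. *Zcchc12* was closest to *Oscp1* (r = 0.942), *E030030I06Rik* to *Trappc10* (r = 0.913), *Tagln2* to *Dnajc15* (r = 0.898), *Zfhx4* to *Ydjc* (r = 0.891), *Sostdc1* to *Qpctl* (r = 0.886), *Ddit4l* to *Eef1akmt1* (r = 0.845) and *Fndc3c1* to *Cul1* (r = 0.767). The genes closest to *Ddit4l*, *Zcchc12*, *Fndc3c1*, *E030030I06Rik* and *Sostdc1* vary little. *Cul1* ran only from 135 to 183 cpm, against 0 to 57.6 cpm for *Fndc3c1*. *Trappc10* ran from 87.3 to 116 cpm, against 0.178 to 99.6 cpm for *E030030I06Rik*, and *Qpctl* from 12.4 to 18.3 cpm.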

How the data were processed

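RNA was measured in 28 samples of 11 groups. The authors selected polyA RNA, sequenced single-end reads on a NextSeq500, aligned them to GRCm38 with HISAT2, ran Cufflinks for annotation and used htseq-count to count the reads of each gene. The deposited values are raw counts per gene for 28244 genes, not normalized; the strand setting, counting mode and annotation release are not given in the sources used here. Each sample's group and replicate number come from its label.

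The 10 genes, the related genes and the marker lists were chosen with earlier results of these data known. The named genes are those 10, their listed relatives and the genes with the most similar pattern among the first 3 for each; 1 of these is not reported here. For each of the 11 comparisons, called genes without overlap between groups and above a minimum mean count were ranked by log2 fold change, and a gene was taken as selected where it was among the first 3. A p is given only in comparisons that share no sample with a selecting one.

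edgeR 4.0.16 (R 4.3.3) was run on the whole table with TMM scaling and filterByExpr (minimum count 10, minimum total 15), 1 quasi-likelihood fit per experiment (10, 12 and 8 samples, the last with the 2 Lung samples) and 1 over all 28 samples for interactions. Tests were two-sided, with Benjamini-Hochberg adjustment over all genes tested. The scripts were tested on simulated counts. Intervals are exact Clopper-Pearson at 95% and, like the floor of 3 counts per library, cover counting error only. Reads carry no molecular identifiers. Alternatives were DESeq2 1.42.0, upper-quartile scaling, no filter, only the 2 groups compared, the replicate block, other limits for on and off, and leaving out each replicate. Positions are from GENCODE M21 and promoter windows from RefSeq on GRCm38.p6; no protein sequence is shown.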

Additional observations from a re-analysis of the deposited data

Results flagged for a closer look

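A similar contrast was available in 2 experiments for lung (Lung-pNSC against Brain-NSC, and Sox2-GFP lung pNSCs against brain NSCs). The same held for tail (Tail-pNSC against Brain-NSC, and Wnt1Cre-mTmG Tail pNSCs against brain NSCs). The experiments also differ in mouse line. The lung pNSCs differ in age too, adult in the first experiment and postnatal in the Sox2-GFP one, and these cannot be told apart. *Sp8* in lung was called by the interaction contrast, with a log2 fold change 5.22 higher in the first experiment (edgeR, adjusted p = 0.0142). The value rests on 0 to 1 reads per sample in the first and a fall from 8, 10 and 8 reads to 0, 0 and 1 in the second. The gene had passed the filter on low counts through tail pNSCs, which are outside this contrast and include the samples that chose it, and it did not pass in the fit of the Sox2-GFP experiment. Without Lung-pNSC replicate 1 or replicate 2 the adjusted p was 0.0614 and 0.0728, and no difference is read from this value.

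In tail, the log2 fold change of *Sostdc1* was lower by 1.77 in the first experiment (an interaction of -1.77, edgeR adjusted p = 0.0126), and that of *E030030I06Rik* was also lower (-1.65, adjusted p = 0.0202). Tail pNSCs and brain NSCs of the Wnt1Cre-mTmG experiment held at most 10 reads of either gene in any sample. The adjusted p of *Sostdc1* was 0.104 without Wnt1Cre-mTmG Tail pNSCs replicate 3. That of *E030030I06Rik* was 0.0819 without Tail pNSCs replicate 2 and 0.0918 without brain NSCs replicate 1.

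For 3 genes the samples of the 2 tail experiments moved in opposite directions without overlap, and the difference was not tested because the gene had been chosen on some of these samples. On the log2(cpm + 1) scale the difference of the effects was 6.22 for *Fndc3c1*, 2.56 for *Zcchc12* and -0.29 for *Tagln2*.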

How the results depend on the processing

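The counts of called genes in the 11 comparisons stayed within 1.5 times their value under each alternative run. The number called for a difference between experiments ran from 0 to 1 for lung and from 1 to 2 for tail when 1 replicate was left out, and fell to 0 without either Lung-pNSC replicate. Replicate numbers did not pair the samples: same-numbered samples had correlations of their deviations between -0.0149 and 0.0549, and the fit with the replicate block changed no count (for example 3 in Lung-pNSC against Brain-NSC and 8 in Tail-pNSC against tail cells). Of 802 single values under alternatives, 788 kept direction and side of the threshold, 8 lost the call, 4 gained it and 2 turned. Both that turned belong to *Crym* in the tail interaction, a value resting on at most 4 reads per sample (1.28 with all samples, from -1.83 to 2.12 with 1 replicate left out, -1.83 without Tail-pNSC replicate 2 and -1.11 without Wnt1Cre-mTmG brain NSCs replicate 3). *Gzmb* in Tail-pNSC against tail cells, on 5 reads in all, lost its call without either Tail-pNSC replicate or without Tail replicate 1 (adjusted p from 0.0732 to 0.21). *Sostdc1* in Wnt1Cre-mTmG Tail pNSCs against brain NSCs gained a call without Tail pNSCs replicate 3 or brain NSCs replicate 1. *E030030I06Rik* in Tail-pNSC against Brain-NSC gained one without Brain-NSC replicate 1, and *Crym* in Wnt1Cre-mTmG Tail pNSCs against brain NSCs without Tail pNSCs replicate 1. Pairs of a gene and a group called off numbered 27, and 40 with a limit of 10 counts; pairs called on numbered 63, and 43 with a limit of 5 cpm. Depth limits the lowest levels most in Wnt1Cre-mTmG brain NSCs and DRG pNSCs.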

Other observations

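The nearest neighbours that were on in any group were read beside each gene, as values with no test. *Tmem159*, which lies 65388 bases from *Crym* on chromosome 7, was on in the same groups. It was at 53.5 cpm in DRG NCSCs, 38.6 cpm in lung cells and 38.4 cpm in tail cells. *Tmem159* held no read in Brain-NSC, Lung-pNSC and Tail-pNSC, and a mean of at most 0.665 cpm in the other NSC and pNSC groups. Lung and tail cells were alike in *Tmem159* and unlike in *Crym*, at 2.76 and 92.1 cpm. *Taf9b*, 198883 bases from *Fndc3c1* on chromosome X, was lowest in Brain-NSC at 7.29 cpm, where *Fndc3c1* had no read. The other 7 NSC and pNSC groups held 19.0 to 42.6 cpm of *Taf9b*, in another order than *Fndc3c1*. Tail-pNSC held 19.0 cpm of *Taf9b* and the most *Fndc3c1*, 57.6 cpm. Lung-pNSC held 34.7 and 0.672 cpm of the same genes, and Sox2-GFP lung pNSCs 42.6 and 13.2 cpm. *Igsf9*, 1169 bases from *Tagln2*, stayed at 2.49 cpm in Lung-pNSC and 2.88 cpm in Brain-NSC, while *Tagln2* was at 0.226 and 192 cpm. *Pex2*, 144331 bases from *Zfhx4*, was at 60.2 and 59.1 cpm in the lung pNSC groups, where *Zfhx4* was off. On its other side, 403615 bases away, *1110015O18Rik* was at 2.43 cpm in Lung-pNSC and 12.3 cpm in Brain-NSC. It was at 3.17 cpm in Sox2-GFP lung pNSCs and 20 cpm in their brain NSCs. The low level of *1110015O18Rik* was not particular to lung lines. Tail-pNSC held 2.18 cpm of it, with *Zfhx4* on at 5.74 cpm. The tail line of the Wnt1Cre-mTmG experiment held 0.171 cpm, with *Zfhx4* on at 5.33 cpm, while brain NSCs there held 12.9 cpm of *1110015O18Rik*. *Sp4* and *Itgb8*, on either side of *Sp8*, were at 34.5 and 382 cpm in Wnt1Cre-mTmG Tail pNSCs and at 19.0 and 596 cpm in their brain NSCs.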
